A study of Mus musculus with 48 samples.

Results

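The interferon-stimulated genes described here are Ifit1, Ifit3, Irf7, Isg15, Oasl2, Bst2, Ifi27, Usp18 and Ifitm3, 9 of the 54838 genes in the count table. They were picked by symbol, to ask whether DNA damage left unrepaired by the loss of a repair enzyme is accompanied by an innate immune signal in the brain. The study compared Aag-/- mice (KO) with wild-type mice (WT), where Aag is the alkyladenine DNA glycosylase, a base excision repair enzyme whose gene carries the symbol Mpg. Male mice were taken at P5 (5 days), 6W (6 weeks) and 6M (adults of 4 to 6 months), and RNA from the hippocampus and the prefrontal cortex was sequenced as poly(A)-selected, stranded libraries with single reads of 75 bases. This gave 12 groups of 4 samples, 48 samples in all: KO and WT at P5, 6W and 6M in each of the 2 tissues. The labels give no strain, no agent and no transgene for any group, and they do not say whether a hippocampal and a prefrontal sample with the same number came from 1 animal.

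Type I interferons are secreted when a cell senses viral or misplaced nucleic acid, for example nuclear DNA that reaches the cytosol and is bound by cGAS, which activates STING. They bind the Ifnar receptor and, through the kinases Jak1 and Tyk2, switch on genes that carry the interferon-stimulated response element in their promoters. In brain, microglia, endothelium and meningeal cells respond strongly, and many target genes keep a low basal level that itself depends on this receptor. Among the 9 genes, Irf7 is the transcription factor that amplifies interferon production. Ifit1 binds foreign RNA, Ifit3 is a related protein of the same tetratricopeptide repeat family, Oasl2 belongs to the oligoadenylate synthetase-like family, Bst2 tethers virions at the cell surface and Ifitm3 blocks viral membrane fusion. Isg15 is a ubiquitin-like modifier, Usp18 removes it from proteins and also restrains the receptor, and Ifi27 is a small membrane protein strongly induced by type I interferon.

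The start-site sequences of the genes are shown because the response element is what the group is known to share. RefSeq promoter windows (GRCm38.p6, 250 bases before to 50 after the start) were given for 7 of the 9 genes and not for Ifi27 and Usp18. The element's core was searched on both strands as GAAANNGAAA, where N is any base and overlapping matches count separately. It was found in 5 of these 7 windows, against 3.443% of all 32851 windows, and each of the 5 held at least 2 cores, against 0.225% of all windows. The 180 bases before the start are printed 5′ to 3′ on the gene's strand, with the core in capitals, for Isg15 (chr4:156200819-156200998, minus strand), Bst2 (chr8:71537473-71537652, minus strand), Ifit3 (chr19:34583349-34583528, plus strand) and Ifit1 (chr19:34640709-34640888, plus strand).
Isg15: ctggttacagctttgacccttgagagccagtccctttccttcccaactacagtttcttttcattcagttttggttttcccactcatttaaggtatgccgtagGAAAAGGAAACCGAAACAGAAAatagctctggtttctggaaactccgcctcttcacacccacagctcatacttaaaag
Bst2: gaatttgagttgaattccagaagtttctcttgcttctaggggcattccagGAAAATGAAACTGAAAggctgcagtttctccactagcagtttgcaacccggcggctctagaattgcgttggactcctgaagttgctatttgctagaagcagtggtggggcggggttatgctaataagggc
Ifit3: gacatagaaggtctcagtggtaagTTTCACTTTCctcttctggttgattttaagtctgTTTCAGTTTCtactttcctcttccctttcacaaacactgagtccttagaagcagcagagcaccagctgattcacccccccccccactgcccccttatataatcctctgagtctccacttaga
Ifit1: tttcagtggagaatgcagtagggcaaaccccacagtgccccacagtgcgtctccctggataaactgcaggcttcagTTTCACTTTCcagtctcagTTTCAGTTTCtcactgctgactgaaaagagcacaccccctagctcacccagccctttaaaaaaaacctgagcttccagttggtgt
Isg15 held 3 overlapping cores between bases -78 and -57 from the start, and Bst2 held 2 overlapping cores between -130 and -115. Ifit3 held its 2 cores from -156 and from -122, and Ifit1 from -104 and from -85, both on the opposite strand. In Ifitm3 the 2 cores lay just after the start, between bases 3 and 29 (chr7:141010716-141010742, minus strand).
Ifitm3: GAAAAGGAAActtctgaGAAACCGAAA
The windows of Oasl2 and Irf7 held no match, which says only that these letters are not in those 300 bases. In the 40 further interferon-stimulated genes listed for comparison, 10 of the 30 with a window held the core.

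All 9 are protein-coding genes (positions in GRCm38, GENCODE M21). Ifit1 (chr19:34640871-34650009) and Ifit3 (chr19:34583531-34588731) both lie on chromosome 19, and Irf7 (chr7:141262706-141266481) and Ifitm3 (chr7:141009586-141010770) on chromosome 7. The others are Isg15 (chr4:156199424-156200818), Oasl2 (chr5:114896936-114912234), Usp18 (chr6:121245906-121270917), Bst2 (chr8:71534255-71537456) and Ifi27 (chr12:103434211-103440239). Per kilobase of exon, the mean level over the 48 samples was highest for Ifitm3, at 17.7 CPM per kb (CPM is reads of the gene scaled to a common library size) (SD 4.64), followed by Ifi27 at 6.80 (SD 3.71). Ifit3 (1.43 CPM per kb), Bst2 (1.33), Oasl2 (0.645), Ifit1 (0.641), Isg15 (0.503), Irf7 (0.469) and Usp18 (0.286) lay lower. Neighbours in this order differed by less than the larger of their SDs over samples, except at the steps from Ifitm3 to Ifi27, from Ifi27 to Ifit3 and from Bst2 (SD 0.369) to Oasl2 (SD 0.219). With the longest transcript as the length, Oasl2 stood at 1.32 and Bst2 at 1.52 CPM per kb, so that this last step rests on the length used. The order also differed by age: at P5, Ifit3 (0.258 CPM per kb) lay below Bst2 (1.31) and Oasl2 (0.395), and Ifit1 (0.109) was the lowest of the 9. Isg15, the ubiquitin-like modifier, was close to the detection floor: it had 1 to 29 reads per sample and fewer than 10 in 26 of 48 samples. Some reads could be shared with look-alike genes or lost as ambiguous, which would alter the levels above. Of the 31-base words of Ifit3, 61.8% also occur in Ifit3b. Of those of Ifitm3, Isg15 and Ifit1, 20.5%, 12.8% and 10.5% occur in other genes. The reads had 75 bases, so these are not shares of reads. Irf7 overlaps Phrf1 and Usp18 overlaps Gm44148 on the opposite strand, and whether the counting used strand is not given in the sources used here.

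Library totals ran from 21615824 to 47343993 counts, so that 3 counts corresponded to 0.0662 to 0.151 CPM. Mpg stood at 0.944 to 2.52 CPM in the 24 KO samples and at 4.46 to 8.93 CPM in the 24 WT samples, with no overlap. The summed level of 6 hippocampal markers was at least 714.8 CPM in every hippocampal sample and at most 414.0 CPM in every prefrontal sample. That of 6 cortical markers was at most 405.8 CPM in the hippocampus and at least 728.2 CPM in the prefrontal cortex. The design text gives 4 animals per time point without tying samples to animals, and in bulk tissue fewer cells of a type and less RNA per cell cannot be told apart.

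**Figure D1:**
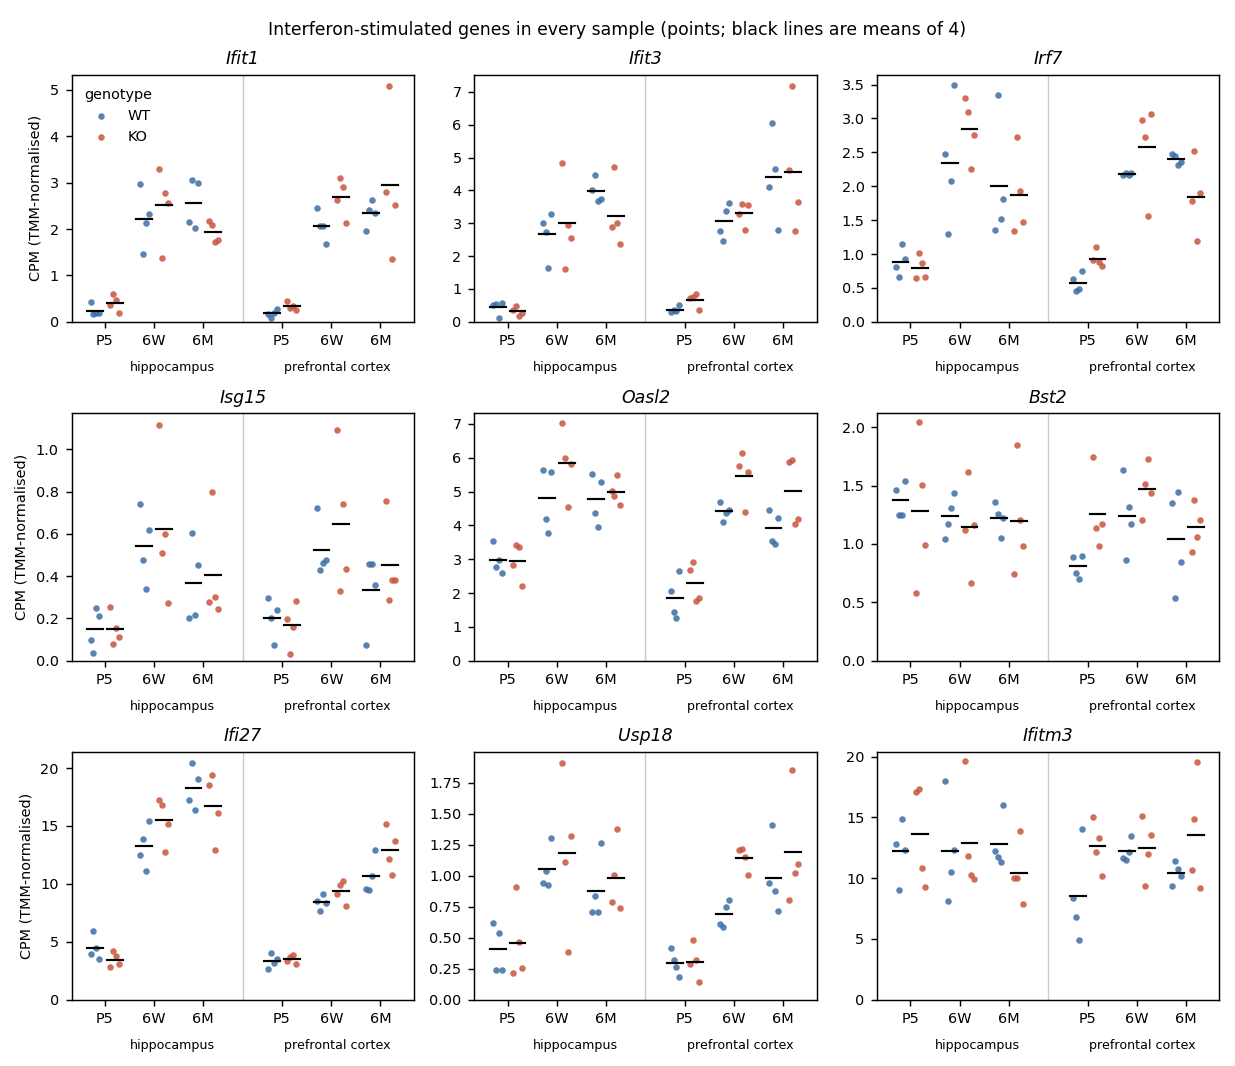
Level of each of the 9 genes (y axis, TMM-normalised CPM, linear from 0) in every sample, by age (x axis) and tissue, with WT in blue, KO in red and black lines at the means of 4 samples. Ifit1, Ifit3, Irf7, Isg15, Oasl2, Ifi27 and Usp18 stand higher at 6W than at P5 in both tissues, while WT and KO points overlap in nearly all panels.

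No interferon-stimulated gene passed the test between KO and WT in any comparison (edgeR quasi-likelihood test, Benjamini-Hochberg adjusted p under 0.05 over all genes tested), and all 9 were tested in each. Over all ages, 9 of 9 estimates were above 0 in the prefrontal cortex and 5 of 9 in the hippocampus. The median estimate was largest in the prefrontal cortex at P5 (0.57), where Ifit1, Ifit3, Irf7, Bst2 and Ifitm3 had unadjusted p-values under 0.05.

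In the prefrontal cortex at P5, the amplifier Irf7 measured 0.624, 0.461, 0.481 and 0.749 CPM in WT replicates 1 to 4 and 0.905, 1.11, 0.888 and 0.818 CPM in KO replicates 1 to 4. Every KO sample was above every WT sample. The estimate was a log2 fold change of 0.68 (SE 0.24, 95% interval 0.17 to 1.18, adjusted p = 0.569 with edgeR).
The virion tether Bst2 measured 0.892, 0.749, 0.703 and 0.898 CPM in WT and 1.74, 1.14, 0.984 and 1.17 CPM in KO, again without overlap. Its log2 fold change was 0.64 (SE 0.27, 95% interval 0.09 to 1.19, adjusted p = 0.592 with edgeR).
The fusion inhibitor Ifitm3 measured 8.33, 6.80, 4.88 and 14.1 CPM in WT and 15.0, 12.1, 13.3 and 10.2 CPM in KO. Here WT replicate 4 lay within the KO range and the other WT samples below it, and the log2 fold change was 0.57 (SE 0.23, adjusted p = 0.585 with edgeR).
Ifit3 measured 0.297, 0.346, 0.333 and 0.509 CPM in WT and 0.728, 0.750, 0.857 and 0.356 CPM in KO, with KO replicate 4 inside the WT range. Its log2 fold change was 0.86 (SE 0.34, adjusted p = 0.575 with edgeR). Its partner Ifit1 had 3 to 9 reads per WT sample and 7 to 20 per KO sample, which is 0.0864 to 0.270 CPM against 0.249 to 0.441 CPM, and a log2 fold change of 0.91 (SE 0.41, adjusted p = 0.596 with edgeR). The other 4 genes had estimates of 0.31 (Oasl2), 0.07 (Usp18), 0.05 (Ifi27) and -0.31 (Isg15), each with an interval that spanned 0.

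Set against the whole table, 0 of 9 genes were called in the prefrontal cortex at P5, where 0.0496% of 18144 genes were. At an unadjusted p under 0.05 there were 5 of 9, all with higher estimates in KO, beside 8.28% of all genes, and DESeq2 also called 0 and gave 5. Non-overlapping groups occurred in 2 of 9, both higher in KO, beside 3.33% of all genes. The median log2 fold change of the 9 was 0.57 and that of all genes 0.03. Leaving out WT replicate 4 raised the estimates of Ifitm3 to 0.92 (adjusted p = 0.0917 with edgeR), of Ifit1 to 1.18 and of Ifit3 to 1.05, with 0 of 9 called and 6 at an unadjusted p under 0.05. That count was 2 without WT replicate 2, WT replicate 3 or KO replicate 1, and 3 without WT replicate 1 or KO replicate 3. In a fit of only the 8 samples it was 3 of the 7 members tested. Without WT replicate 3 the estimate of Ifitm3 was 0.38 (adjusted p = 0.859 with edgeR).

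Markers of meninges and vessels moved with these estimates. The summed level of 5 markers of meningeal and perivascular fibroblasts was 102.0, 82.4, 42.4 and 219.5 CPM in WT replicates 1 to 4 at P5 and 273.5, 201.2, 161.8 and 131.8 CPM in KO replicates 1 to 4. WT replicate 4, the WT sample highest in Ifit1, Ifit3, Irf7, Bst2 and Ifitm3, was also the highest WT sample in this sum, and KO replicate 4, the lowest KO sample in Ifit1, Ifit3, Irf7 and Ifitm3, was the lowest KO sample. All 5 fibroblast markers had estimates above 0 (median log2 fold change 0.74), as had 5 of 6 markers of border macrophages (0.45), 9 of 10 of endothelium (0.30), 5 of 6 of mural cells (0.36) and 9 of 12 of microglia (0.27), beside 54.6% of all genes. None of these markers was called by edgeR, none was at 0 in either group, and 4 fibroblast, 1 border macrophage, 4 endothelial, 3 mural and 4 microglial markers had an unadjusted p under 0.05, beside 8.28% of all genes. The summed endothelial level ran from 147.9 to 208.5 CPM in WT and from 193.4 to 234.6 CPM in KO. The mitochondrial share of counts was 8.65 to 12.03% in WT and 6.33 to 12.4% in KO. The part of these cell types in the estimates was not tested.

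**Figure D2:**
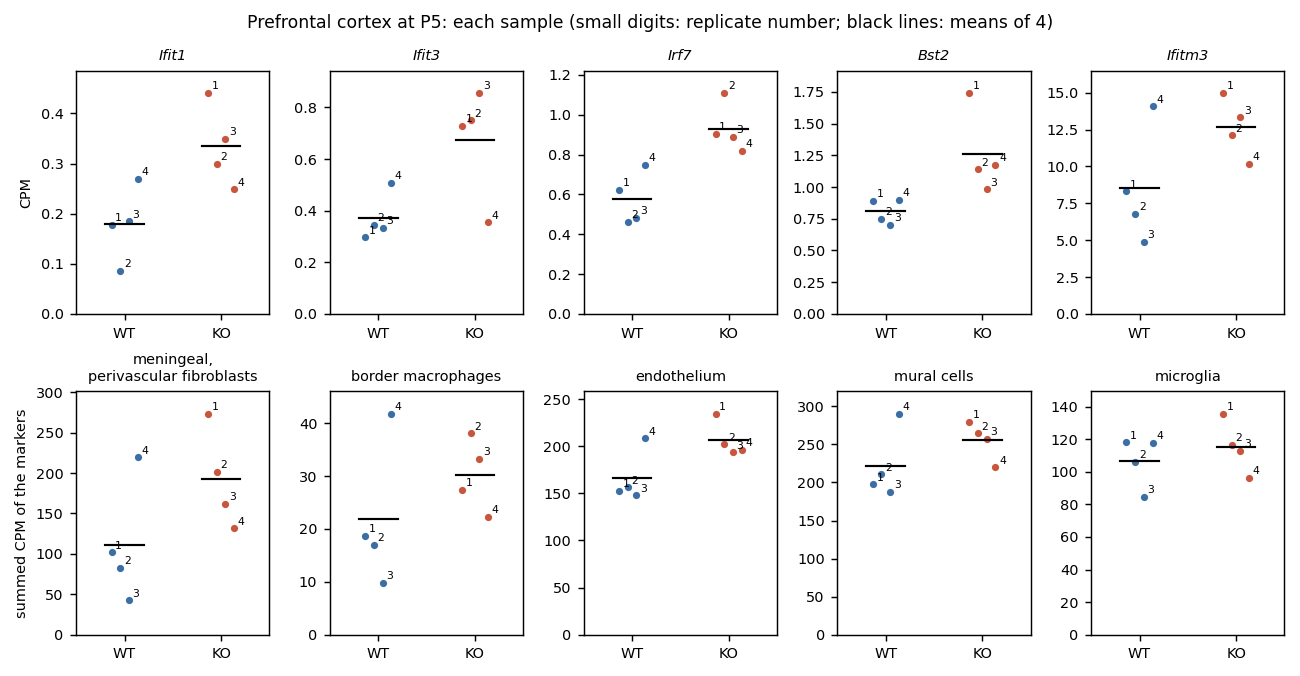
Prefrontal cortex at P5, each sample as a point with its replicate number, WT in blue and KO in red, black lines at the means of 4. The upper row gives CPM of the 5 genes with an unadjusted p under 0.05 and the lower row the summed CPM of 5 marker lists (linear axes from 0); WT replicate 4 is the highest WT sample in each upper panel and in the fibroblast, border macrophage, endothelial and mural sums.

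At the later ages the median prefrontal estimate was smaller, while the estimates of Usp18, Ifi27 and Isg15 were higher than at P5 at both ages. That of Oasl2 was 0.31 at P5 (0.17 to 0.54 without 1 sample), 0.31 at 6W and 0.36 at 6M. At 6W, all 9 lay above 0 with a median of 0.24 (all genes 0.01), and 0 of 9 were called beside 0.0331% of 18144 genes. The deconjugating protease Usp18 measured 0.607, 0.587, 0.748 and 0.803 CPM in WT and 1.21, 1.22, 1.15 and 1.01 CPM in KO. The groups did not overlap, which held for 1 of 9 genes and for 2.58% of all genes, and the log2 fold change was 0.73 (SE 0.31, adjusted p = 1.0 with edgeR). Usp18 alone of the 9 was at an unadjusted p under 0.05 by edgeR and by DESeq2, beside 3.38% of all genes, and none was without WT replicate 1, WT replicate 2 or KO replicate 2. At 6M, 8 of 9 estimates lay above 0 (5 without KO replicate 2, and 7 or 8 without any other sample) with a median of 0.29, 0 of 9 were called beside 0.0331% of genes, and no gene's groups were separate (1.87% of all genes). Ifi27 alone had an unadjusted p under 0.05 there, by edgeR and by DESeq2, beside 1.73% of all genes. That count was 0 with replicate number as a block and without a filter on low counts, and 0 to 3 without 1 sample. Ifi27 measured 10.6 CPM (SD 1.61, n = 4) in WT and 12.9 CPM (SD 1.92, n = 4) in KO. Irf7 pointed the other way at 6M, with 2.402 CPM (SD 0.0758) in WT and 1.85 CPM (SD 0.543) in KO and a log2 fold change of -0.37 (SE 0.22).

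Averaged over the 3 ages, the prefrontal log2 fold changes were 0.54 for Ifit1 (SE 0.19), 0.36 for Usp18 (SE 0.19), 0.34 for Bst2 (SE 0.16) and for Ifit3 (SE 0.16), 0.33 for Ifitm3 (SE 0.14) and for Oasl2 (SE 0.12), 0.18 for Irf7 (SE 0.13), 0.16 for Ifi27 (SE 0.08) and 0.14 for Isg15 (SE 0.31). Their median was 0.33, beside 0.01 for all genes, of which 53.8% had an estimate above 0. By edgeR 0 of 9 were called, with a lowest adjusted p of 0.924, beside 0.0661% of 18144 genes, and 4 of 9 (Ifit1, Oasl2, Ifitm3 and Bst2) had an unadjusted p under 0.05 beside 5.14%. DESeq2 called 0 and gave 5 at an unadjusted p under 0.05. Leaving out each of the 24 samples in turn, edgeR called 0 and gave 3 to 7 at an unadjusted p under 0.05, with 7 without KO replicate 4 of P5, and the lowest adjusted p was 0.311, without WT replicate 4 of P5. The 5 fibroblast markers and the 6 border macrophage markers all had estimates above 0 over all ages, with medians of 0.49 and 0.28, and none was called. The other lists named at P5 did not stay higher in KO. Mean summed microglial levels in WT and KO were 463 and 449 CPM at 6W and 459 and 443 CPM at 6M. For mural cells they were 199 and 191 CPM, then 181 and 173 CPM. For endothelium they were 245 and 230 CPM, then 230 and 241 CPM. WT and KO samples overlapped in each of these.

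In the hippocampus the 9 estimates divided between both directions at P5 and at 6M. At P5, 4 of 9 estimates lay above 0, with a median of -0.01 and a range of -0.50 to 0.72. Leaving out 1 sample in turn, the estimate of Ifit1 (5 to 15 reads per sample) ran from 0.50 to 1.14. That of Ifit3 (3 to 19 reads per sample) ran from -0.80 to -0.29. By edgeR 0 of 9 were called beside 0.118% of 17786 genes, and no gene's groups were separate (4.47% of all genes). Ifi27 was the 1 gene at an unadjusted p under 0.05 by edgeR, and DESeq2 gave 1 as well, beside 7.83% of all genes. No gene was at this level in a fit of only the 8 samples, where 8 members were tested. Without KO replicate 1, WT replicate 2 or WT replicate 3 there was none either, and without WT replicate 1 there were 2. Ifi27 measured 4.48 CPM (SD 1.05, n = 4) in WT and 3.45 CPM (SD 0.61, n = 4) in KO, a log2 fold change of -0.38 (SE 0.17, adjusted p = 0.593 with edgeR). At 6W, 8 of 9 estimates lay above 0 with a median of 0.17 and a range of -0.14 to 0.28. By edgeR 0 of 9 were called beside 0.0394% of genes, 0 had an unadjusted p under 0.05 beside 4.32%, by DESeq2 too, and no groups were separate (2.83% of all genes). At 6M, 3 of 9 lay above 0 with a median of -0.08 and a range of -0.39 (Ifit1) to 0.19 (Isg15). By edgeR 0 of 9 were called beside 0.045% of genes, 0 had an unadjusted p under 0.05 beside 3.24%, by DESeq2 too, and no groups were separate (2.04% of all genes). Leaving out each sample in turn, the number of estimates above 0 ran from 2 to 5 at P5, from 4 to 9 at 6W and from 1 to 5 at 6M.

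Over all ages, the hippocampal log2 fold changes ran from -0.21 for Ifit3 (SE 0.20) to 0.17 for Ifit1 (SE 0.18), with a median of 0.01. By edgeR 0 of 9 were called beside 0.0675% of genes and 0 had an unadjusted p under 0.05 beside 5.84%, by DESeq2 too. The 95% intervals of these averages over ages ran from -0.09 to 0.32 for Oasl2 and from -0.28 to 0.09 for Ifi27. That of the sparsely counted Isg15 ran from -0.53 to 0.78, and the intervals of the other genes are not listed here. These intervals describe the averages and do not bound the effect at a single age. Single-age estimates ran from -0.50 to 0.72 at P5, from -0.14 to 0.28 at 6W and from -0.39 to 0.19 at 6M. The fibroblast and border macrophage markers had estimates below 0 in the hippocampus over all ages, 5 of 5 with a median of -0.47 and 6 of 6 with a median of -0.51. Choroid plexus markers varied widely between hippocampal samples, with summed levels of 57.6 to 2057 CPM in KO and 2107 to 7894 CPM in WT at P5, and their part in the hippocampal estimates was not tested.

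**Figure D3:**
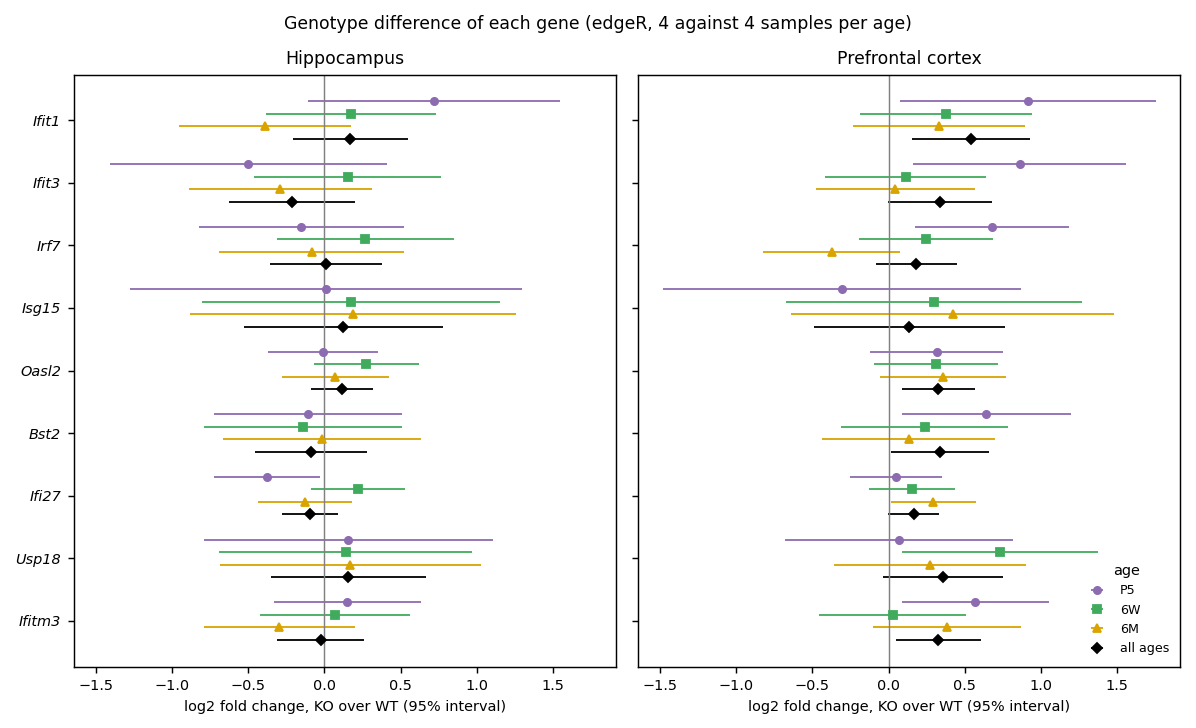
Log2 fold change of KO over WT (x axis) for each of the 9 genes (y axis) in the hippocampus and the prefrontal cortex, at P5, 6W, 6M and averaged over all ages, with 95% intervals from edgeR. The averages run from -0.21 to 0.17 in the hippocampus and from 0.14 to 0.54 in the prefrontal cortex, and none passed the test after adjustment.

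The difference between the tissues was tested directly. The genotype effect in the hippocampus minus that in the prefrontal cortex had an estimate below 0 for all 9 genes, from -0.55 for Ifit3 (SE 0.27) to -0.01 for Isg15 (SE 0.52), with a median of -0.26 beside 0.00 for all genes. By edgeR 0 of 9 were called, beside 0.0% of 18849 genes, and Ifit3 and Ifi27 had an unadjusted p under 0.05 beside 3.25% of genes. That count ran from 0 to 3 when each of the 48 samples was left out in turn, and was 3 without a filter on low counts and with same-numbered samples of both tissues taken as 1 animal. The genotype effect was also tested for a difference between ages. In that test edgeR called 0 of 9 genes in the hippocampus, beside 0.00562% of genes, and 0 in the prefrontal cortex, beside 0.00551%. Ifi27 in the hippocampus (4.83% of all genes) and Irf7 in the prefrontal cortex (3.06% of all genes) were the only members at an unadjusted p under 0.05, with 0 to 2 and 1 to 2 such members without 1 sample and 2 in the hippocampus without the filter. These 2 tests were not run in DESeq2.

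The genes upstream and beside the 9 gave no call between KO and WT either. Over all ages, 52.6% of all genes tested had estimates above 0 and 5.84% an unadjusted p under 0.05 in the hippocampus, and 53.8% and 5.14% in the prefrontal cortex. Of 21 interferon genes, 19 to 21 were at 0 in every group, and their highest summed level in any sample was 0.0888 CPM. Of 15 genes of the interferon receptors and their JAK-STAT pathway, 14 were tested in each tissue and 0 called by edgeR over all ages. Estimates lay above 0 for 8 in the hippocampus (median 0.02, 0 at an unadjusted p under 0.05) and for 10 in the prefrontal cortex (median 0.03, 2 at an unadjusted p under 0.05). Of 22 genes that sense nucleic acids, 20 were tested in the hippocampus (median -0.01, 10 above 0) and 21 in the prefrontal cortex (median 0.05, 15 above 0), with 0 called and 1 at an unadjusted p under 0.05 in each. Of the 40 further interferon-stimulated genes, 35 were tested in each tissue with 0 called. In the hippocampus 15 lay above 0 (median -0.01, 4 at an unadjusted p under 0.05), and in the prefrontal cortex 28 (median 0.17, 8 at an unadjusted p under 0.05). Of 27 genes induced by interferon-gamma or of antigen presentation, 25 were tested in each tissue with 0 called (lowest adjusted p of 0.151 and 0.924 with edgeR). In the hippocampus 6 lay above 0 (median -0.06, 4 at an unadjusted p under 0.05), and in the prefrontal cortex 20 (median 0.13, 5 at an unadjusted p under 0.05). Of 20 targets of p53 and genes of the DNA damage response, 19 were tested, with 0 called in either tissue and medians of 0.01 in the hippocampus and -0.01 in the prefrontal cortex.

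Between P5 and 6W, 7 of 9 genes rose in both genotypes and both tissues, namely Ifit1, Ifit3, Irf7, Isg15, Oasl2, Ifi27 and Usp18, while Bst2 and Ifitm3 passed the test in none of the 4 comparisons. In the hippocampus of WT mice, 7 of 9 rose beside 31.4% of all genes and 0 fell beside 30.6%. In KO mice it was 7 of 9 beside 31.2% and 0 beside 31.0%. In the prefrontal cortex, 7 of 9 rose beside 30.6% in WT and 30.2% in KO, and 0 fell beside 30.3% and 31.2%. The median log2 fold change of the 9 genes was 1.40 and 1.83 in the hippocampus of WT and KO mice and 1.31 and 1.46 in the prefrontal cortex, with medians of all genes between -0.02 and 0.02. The mitochondrial share of counts moved over the same interval without overlap, from 10.6 to 12.5% at P5 to 15.7 to 31.6% at 6W in the WT hippocampus and from 8.65 to 12.03% to 15.9 to 21.2% in the WT prefrontal cortex, and its part in these changes was not tested.

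The Ifit genes changed most. Ifit1 measured 0.424, 0.173, 0.179 and 0.181 CPM in the WT hippocampus at P5 and 2.97, 1.47, 2.13 and 2.33 CPM at 6W, so that every 6W sample was above every P5 sample. The log2 fold change was 3.19 (SE 0.34, adjusted p = 6.07e-09 with edgeR) there and 3.49 (SE 0.36) in the WT prefrontal cortex. Ifit3 rose by 2.58 (SE 0.35) and 3.01 (SE 0.31) on the log2 scale in the same 2 comparisons, from 0.439 CPM (SD 0.222, n = 4) to 2.67 CPM (SD 0.721, n = 4) in the hippocampus. Both also rose in KO, Ifit1 by 2.64 and 2.95 and Ifit3 by 3.24 and 2.27 in the hippocampus and the prefrontal cortex. The P5 levels rest on few reads. Ifit1 had 5 to 13 per WT hippocampal sample and 3 to 9 per WT prefrontal sample, and Ifit3 had 3 to 19 and 9 to 17.

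Ifi27, the membrane protein, measured 3.97, 5.95, 4.47 and 3.52 CPM in the WT hippocampus at P5 and 12.5, 13.9, 11.1 and 15.4 CPM at 6W, with a log2 fold change of 1.57 (SE 0.16, adjusted p = 2.18e-09 with edgeR). In the WT prefrontal cortex it went from 3.34 CPM (SD 0.611) to 8.40 CPM (SD 0.597), a log2 fold change of 1.32 (SE 0.14). The amplifier Irf7 rose by 1.40 (SE 0.30) in the WT hippocampus and by 1.89 (SE 0.24) in the WT prefrontal cortex, where it reached 2.18 CPM (SD 0.0150, n = 4) at 6W. Oasl2 rose by 0.70 (SE 0.17) and 1.23 (SE 0.21). The modifier Isg15 rose by 1.84 (SE 0.55) and 1.31 (SE 0.52), and its protease Usp18 by 1.36 (SE 0.44) and 1.2 (SE 0.35). The call of Isg15 in the WT prefrontal cortex was lost without 6W replicate 1, P5 replicate 2 or P5 replicate 3 (adjusted p of 0.0961, 0.0619 and 0.0958 with edgeR) and without a filter on low counts (adjusted p = 0.0545). That of Usp18 in the KO hippocampus was lost without 6W replicate 1 (adjusted p = 0.053 with edgeR).

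Bst2 and Ifitm3 did not pass in either tissue. The fusion inhibitor Ifitm3 stood at 12.3 CPM (SD 2.41) at P5 and 12.2 CPM (SD 4.20) at 6W in the WT hippocampus, a log2 fold change of 0.00 (95% interval -0.49 to 0.48). In the WT prefrontal cortex it stood at 8.52 CPM (SD 3.96) and 12.2 CPM (SD 0.90), a log2 fold change of 0.50 (adjusted p = 0.0674 with edgeR) that became 0.85 (adjusted p = 0.00156 with edgeR) without P5 replicate 4 and 0.48 (adjusted p = 0.0471 with edgeR) without a filter on low counts. Bst2 had log2 fold changes of -0.14 (95% interval -0.77 to 0.48) in the WT hippocampus and 0.60 (adjusted p = 0.0595 with edgeR) in the WT prefrontal cortex, and 0.74 in the latter (adjusted p = 0.0299 with edgeR) without 6W replicate 2.

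**Figure D4:**
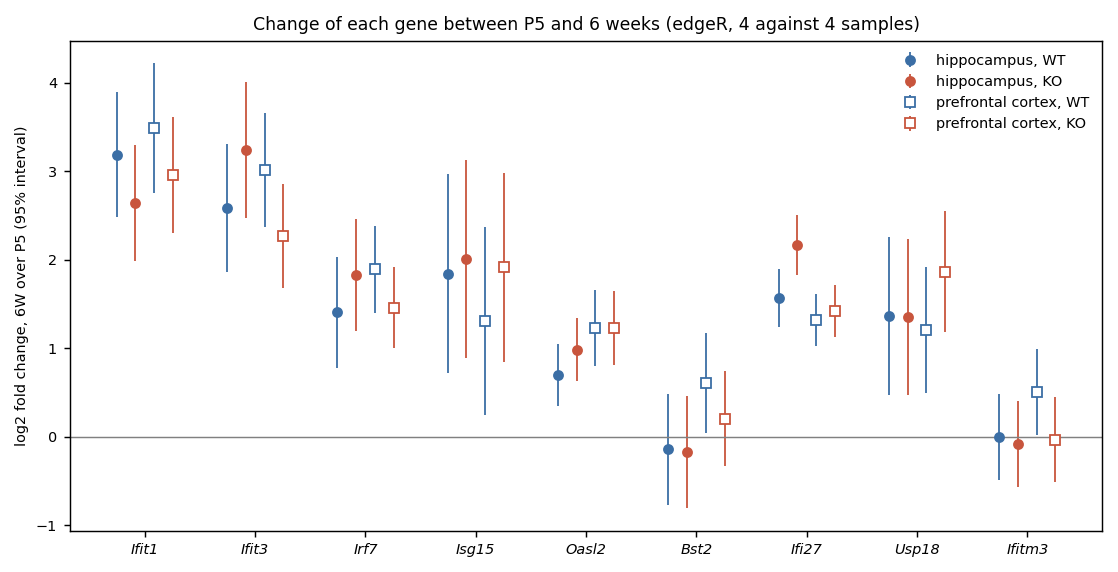
Log2 fold change of 6W over P5 (y axis) with 95% intervals from edgeR for each of the 9 genes (x axis), in WT (blue) and KO (red), with filled circles for the hippocampus and open squares for the prefrontal cortex. Ifit1 and Ifit3 lie between 2.27 and 3.49, and the intervals of Bst2 and Ifitm3 span 0 except in the WT prefrontal cortex.

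Lists of related genes moved over the same interval as follows, beside 31.4% of all genes rising and 30.6% falling in the WT hippocampus and 30.6% and 30.3% in the WT prefrontal cortex. Of the 40 further interferon-stimulated genes, 18 of 35 tested rose and 3 fell in the WT hippocampus (median 0.63), and 20 of 35 rose and 1 fell in the WT prefrontal cortex (median 0.84). Ifit3b, the near-copy of Ifit3, rose most in both tissues, by 4.32 and 4.82 on the log2 scale, while Ifitm2, a relative of Ifitm3, had the largest fall, with log2 fold changes of -1.79 and -1.23. Among genes induced by interferon-gamma and of antigen presentation, 17 of 25 rose and 1 fell in the hippocampus, and 19 of 25 rose and 0 fell in the prefrontal cortex. Of the receptor and JAK-STAT genes, 3 rose and 5 fell of 14 in the hippocampus and 5 rose and 5 fell of 14 in the prefrontal cortex. The nucleic acid sensors divided as 6 rising and 3 falling of 20 in the hippocampus and 7 rising and 3 falling of 21 in the prefrontal cortex, so that neither list's rising share stood far from that of all genes. The largest rise among the sensors was that of Tlr3, the endosomal sensor of double-stranded RNA, with 1.95 (SE 0.16) and 2.2 (SE 0.19). All 12 microglial markers rose in both tissues, with medians of 1.44 and 2.18. Of 10 endothelial markers, 3 rose and 4 fell in the hippocampus and 4 rose and 4 fell in the prefrontal cortex, and of 6 border macrophage markers 0 rose and 4 and 3 fell. The summed microglial level was 154.8 to 177.8 CPM at P5 and 382.2 to 666.3 CPM at 6W in the hippocampus, and 84.5 to 118.1 CPM and 413.3 to 501.6 CPM in the prefrontal cortex. All 4 oligodendrocyte markers rose as well, with medians of 7.31 and 6.59. The part of these cell types in the rise of the 7 genes was not tested.

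Between 6W and 6M none of the 9 passed the test. In the hippocampus, edgeR called 0 of 9 in WT beside 0.157% of genes and 0 of 9 in KO beside 0.45%, with 1 at an unadjusted p under 0.05 in each (10.5% and 6.76% of all genes). In the prefrontal cortex it called 0 of 9 in WT beside 0.0386% and 0 of 9 in KO beside 0.0937%, with 2 at an unadjusted p under 0.05 in each (4.74% and 11.1% of all genes). DESeq2 called 0 in all 4 and gave the same 4 counts at an unadjusted p under 0.05. Leaving out 1 sample in turn, these counts by edgeR ran from 1 to 2 and 0 to 2 in the hippocampus of WT and KO and from 0 to 2 and 1 to 2 in the prefrontal cortex. The lowest adjusted p-values with edgeR were 0.282 and 0.733 in the hippocampus of WT and KO and 0.875 and 0.172 in the prefrontal cortex. Ifi27 in the WT hippocampus stood at 13.2 CPM (SD 1.86, n = 4) at 6W and 18.3 CPM (SD 1.83, n = 4) at 6M. The 2 ages did not overlap in the WT hippocampus for Ifi27 and Ifit3, both higher at 6M (2 of 9, beside 5.41% of all genes), nor in the WT prefrontal cortex for Ifi27 and Irf7, higher at 6M, and Ifitm3, lower (3 of 9, beside 3.95%). In KO mice this held for 0 of 9 in the hippocampus (3.87% of all genes) and for 1 of 9, Ifi27, higher at 6M, in the prefrontal cortex (8.35%). Without a filter on low counts, 1 of 9 was called in the WT hippocampus (adjusted p = 0.0489 with edgeR).

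The tissues were compared in WT mice. Ifi27 was higher in the hippocampus than in the prefrontal cortex at all 3 ages, with log2 differences of 0.42 (SE 0.16, adjusted p = 0.045 with edgeR) at P5, 0.66 (SE 0.15, adjusted p = 0.000491) at 6W and 0.78 (SE 0.14, adjusted p = 4.26e-05) at 6M. At 6M the hippocampal samples measured 17.3, 20.5, 16.4 and 19.0 CPM and the prefrontal samples 9.52, 9.45, 10.7 and 12.9 CPM, and the groups did not overlap. At P5, Oasl2 (log2 difference 0.67, SE 0.20, adjusted p = 0.00837 with edgeR) and Bst2 (0.76, SE 0.29, adjusted p = 0.0486) were also higher in the hippocampus. Thus 3 of 9 were higher at P5 beside 13.3% of 18849 genes, 1 of 9 at 6W beside 13.1% and 1 of 9 at 6M beside 11.3%. None of the 9 was lower by edgeR (0 of 9), beside 12.7%, 13.8% and 11.2% of genes, and 0 of the lower estimates had an unadjusted p under 0.05, while DESeq2 called 3, 1 and 1 in all. The P5 calls lay near the threshold. That of Bst2 was lost without any 1 of the 8 samples (log2 differences of 0.70 to 0.81, adjusted p of 0.0581 to 0.121 with edgeR) and when replicate number entered the fit as a block (adjusted p = 0.0537). That of Ifi27 was lost without hippocampal replicate 2 or 3 or prefrontal replicate 1, 3 or 4 (adjusted p of 0.0569 to 0.291) and in a fit of only the 8 samples (adjusted p = 0.115), and that of Oasl2 without prefrontal replicate 3 (adjusted p = 0.0592). Without a filter on low counts, Bst2 (adjusted p = 0.109) and Ifi27 (adjusted p = 0.0701) were not called. Ifitm3, with a log2 difference of 0.52 (adjusted p = 0.125 with edgeR), was called without prefrontal replicate 4 (0.87, adjusted p = 0.00903) and without the filter (0.53, adjusted p = 0.0491). With same-numbered samples of both tissues taken as 1 animal, which the labels do not state, Ifitm3 was called (0.59, adjusted p = 0.0341) and Bst2 was not (adjusted p = 0.0783). Cell type markers differed between the tissues at P5 as well. The summed microglial level was 154.8 to 177.8 CPM in the WT hippocampus and 84.5 to 118.1 CPM in the WT prefrontal cortex, and that of choroid plexus 2107 to 7894 CPM and 64.8 to 83.9 CPM, without overlap. At 6M choroid plexus markers summed to 412.4 to 3867 CPM and 250.9 to 318.5 CPM, while the microglial sums overlapped at 6W and 6M. The fibroblast sums at 6M were 94.3 to 137.7 CPM in the hippocampus and 34.3 to 47.1 CPM in the prefrontal cortex, and they overlapped at P5 and 6W. The part of these cell types in the tissue differences was not tested.

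Within groups the 9 genes varied together only loosely. Over the 48 samples, after subtraction of each group's mean log2 CPM, the 36 pairs of genes had Pearson correlations from -0.14 (Ifi27 with Ifitm3) to 0.52 (Oasl2 with Ifitm3), with a median of 0.24 and 32 above 0. The 8 genes of 14082 whose deviations were most like the mean of the 9 were Bmp4 (r = 0.71), Mxra8 (0.67), Acbd4 (0.63), Gsn (0.63), Fcgrt (0.62), Plcb3 (0.61), Aebp1 (0.60) and Acadvl (0.60). All genes of a sample share its library and its dissection, so these values describe the samples and carry no p. On the same measure, the 5 fibroblast markers had a median r of 0.44, the 4 ranked border macrophage markers 0.41, the 20 ranked genes of interferon-gamma and antigen presentation 0.31, the 6 mural cell markers 0.30, the 6 ranked choroid plexus markers 0.29, the 12 microglial markers 0.26, the 23 ranked further interferon-stimulated genes 0.25, the 4 neuronal markers -0.26 and all genes 0.00.

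Samples of the 2 tissues with the same genotype, age and number were compared in 24 pairs. The correlation of deviations from the group mean ran from -0.18 for Bst2 to 0.37 for Usp18, with a median of 0.29 beside 0.00 for all genes. The 9 values of r (and Spearman's rho) were 0.16 (0.12) for Ifit1, 0.19 (0.24) for Ifit3, 0.30 (0.29) for Irf7, 0.23 (0.24) for Isg15, 0.29 (0.30) for Oasl2, -0.18 (-0.11) for Bst2, 0.33 (0.25) for Ifi27, 0.37 (0.27) for Usp18 and 0.29 (0.39) for Ifitm3. By a two-sided permutation test of the pairing within groups (100000 permutations), the raw p-values of r ran from 0.123 to 0.455 and those of rho from 0.0923 to 0.654, and adjusted over 17282 genes they were 0.99, so that 0 of 9 passed, beside 0.0% of genes. Without the 2 hippocampal values farthest from the median, r was 0.08 for Ifi27, 0.14 for Oasl2, 0.01 for Bst2 and 0.15 to 0.36 for the other 6. Without the P5 pairs, r was 0.00 for Usp18, 0.02 for Bst2, 0.08 for Ifi27, 0.11 for Ifit1, 0.22 for Ifit3, 0.27 for Irf7, 0.38 for Isg15, 0.46 for Ifitm3 and 0.49 for Oasl2.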

How the data were processed

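Whole-number read counts per gene were deposited by the authors as 1 table of 54838 Ensembl genes and 48 samples, with no normalization. The submitters' processing notes name the genome build GRCm38 and the tools bcl2fastq 2.20.0.422, STAR 2.4.0 and HTSeq. The strand setting of the counting is not given in the sources used here. Per the labels' protocols, libraries were made from poly(A) RNA with a stranded kit, which captures few RNAs that lack such a tail.

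Genes were filtered with filterByExpr, scaled with TMM factors and tested with edgeR's quasi-likelihood test (edgeR 4.0.16, limma 3.58.1, R 4.3.3), with 1 fit of the 6 groups of each tissue and 1 of all 48 samples for comparisons between tissues. P-values were adjusted over all genes of a fit by the Benjamini-Hochberg method, and a gene was called at an adjusted p under 0.05. The fits were tested on simulated counts. P-values set each difference against the spread between these samples. CPM values use TMM-scaled library sizes, and log2 CPM values a prior count of 1. Intervals are at 95%, and the limit of 3 counts covers counting error only.

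All 9 genes are reported in each genotype comparison, along with the gene of each interferon or sensing list with the largest called change in each direction in WT from P5 to 6W, and the 8 genes most like the 9. Gbp5, Igtp, Tapbp, Socs1, Ifngr2, Rnaseh2b and Ikbke also met this rule; their log2 fold changes from P5 to 6W in WT were 1.85 for Gbp5 and -0.45 for Tapbp, -1.54 for Socs1 and -0.76 for Rnaseh2b in the hippocampus, and 2.27 for Igtp, -1.41 for Ifngr2 and -1.13 for Ikbke in the prefrontal cortex. A further result under this rule is not reported here. The members and lists were chosen with earlier results of these data known. Alternatives were DESeq2 1.42.0, median-of-ratios size factors, other filters, fits of only the 8 samples compared, blocks and leaving out each sample. Same-numbered samples deviated together (every correlation over 0.1) only for KO against WT at 6W (mean r 0.34) and KO from 6W to 6M (mean r 0.37), both in the hippocampus. This cut carries no p, and the labels state no pairing. The main values for these 2 comparisons are from the fit without a block. With the replicate number as a block, 0 of 9 genes were called in each.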

Additional observations from a re-analysis of the deposited data

Results flagged for a closer look

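In 4 of 108 sets of 4 samples (9 genes in 12 groups), a single sample stood apart from the other 3 by more than the 95% critical gap, where chance gives about 5.4. Ifit1 measured 0.4235 CPM in WT replicate 1 of the P5 hippocampus, against 0.1729 to 0.1808 CPM in the others. Ifit3 measured 0.1073 CPM in WT replicate 3 of the P5 hippocampus, against 0.5212 to 0.5724 CPM. Isg15 measured 0.797 CPM in KO replicate 2 of the 6M hippocampus, against 0.2456 to 0.3009 CPM. Isg15 measured 0.7203 CPM in WT replicate 1 of the 6W prefrontal cortex, against 0.4306 to 0.4744 CPM.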

How the results depend on the processing

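Of 2405 fold changes of the 9 genes under alternatives, 2270 kept their direction and their side of the threshold, 24 lost a call, 6 gained one and 105 changed sign, none of them a called change. With the replicate number as a block, hippocampal P5 values became -0.02 for Isg15 and 0.00 for Oasl2, and the hippocampal minus prefrontal genotype effect 0.00 for Isg15. The block changed no other call than that of Bst2 between tissues at P5. In a fit of only the 8 samples, Ifitm3 from P5 to 6W in the WT hippocampus became 0.01. Without the P5 pairs, the correlation between tissues became 0.02 for Bst2 and 0.00 for Usp18. With no filter on low counts, 1 gene was called from 6W to 6M in the WT hippocampus. Leaving out each sample in turn left 0 to 2 genes called between tissues at P5.

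Leaving out each sample in turn let these log2 fold changes change sign. For KO against WT in the hippocampus at P5 the ranges were -0.41 to 0.13 (Bst2), -0.34 to 0.34 (Isg15), -0.08 to 0.11 (Oasl2) and -0.36 to 0.43 (Usp18). At 6W they were -0.35 to 0.06 (Bst2), -0.17 to 0.35 (Ifit3), -0.20 to 0.31 (Ifitm3), -0.24 to 0.43 (Isg15) and -0.19 to 0.45 (Usp18). At 6M they were -0.31 to 0.16 (Bst2), -0.33 to 0.27 (Irf7), -0.38 to 0.52 (Isg15), -0.02 to 0.15 (Oasl2) and -0.04 to 0.40 (Usp18). Over all ages they were -0.12 to 0.06 (Ifitm3), -0.07 to 0.13 (Irf7), -0.06 to 0.24 (Isg15) and -0.02 to 0.26 (Usp18). In the prefrontal cortex they were -0.05 to 0.16 (Ifi27), -0.62 to 0.03 (Isg15) and -0.21 to 0.29 (Usp18) at P5, and -0.07 to 0.14 (Ifitm3) and -0.08 to 0.52 (Isg15) at 6W. At 6M they were -0.08 to 0.32 (Bst2), -0.05 to 0.56 (Ifit1), -0.25 to 0.24 (Ifit3) and 0.00 to 0.50 (Usp18). For the difference between tissues Isg15 ran from -0.20 to 0.11. From P5 to 6W, Bst2 ran from -0.43 to 0.12 in the KO hippocampus, and Ifitm3 from -0.36 to 0.04 there, -0.24 to 0.15 in the WT hippocampus and -0.14 to 0.09 in the KO prefrontal cortex. Between tissues at P5, Ifit1 ran from -0.01 to 0.68. The cause was not tested.

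Over all genes, several settings moved the number of calls by more than 1.5 times. Without the filter on low counts, KO against WT in the hippocampus gave 244, 102, 123 and 193 calls at P5, 6W, 6M and over all ages (21, 7, 8 and 12 with it), and the age dependence of the genotype effect 258 (1). The step from 6W to 6M gave 341 in WT and 339 in KO (28 and 80). The prefrontal cortex gave 14 at P5 (9), 23 and 61 from 6W to 6M (7 and 17) and 4 for the age dependence (1), and the difference between tissues 38 (0). DESeq2 gave 59 at P5, 27 over all ages, and 90 and 124 from 6W to 6M in the hippocampus, and 17 at P5 and 29 and 120 from 6W to 6M in WT and KO in the prefrontal cortex. Only the 8 samples gave 38 at P5, 5 at 6M, and 2 and 32 from 6W to 6M in the hippocampus, and 5 at P5 and 81 for KO from 6W to 6M in the prefrontal cortex. The replicate block gave 55 and 3 for WT from 6W to 6M in the hippocampus and the prefrontal cortex, and median-of-ratios scaling or a mean of at least 10 counts gave 2 for the prefrontal age dependence. With fewer than 10 reads in 26 of 48 samples, depth limits Isg15 most.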
